A study of Mus musculus with 12 samples.

Results

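The GABA-A receptor and the chloride cotransporters of neurons were followed through 7 genes, which were chosen by symbol among the 46603 annotated genes of the count tables. They are the alpha subunit genes Gabra2, Gabra3 and Gabra5, the beta subunit genes Gabrb1 and Gabrb2, and the cotransporter genes Slc12a2 and Slc12a5. RNA came from microdissected neocortex of Chd8+/+ and Chd8+/- mice at embryonic day 12.5 (E12.5, both hemispheres) and postnatal day 5 (P5, 1 hemisphere), with 3 libraries in each of the 4 groups. The Chd8+/- mice carry 1 null allele of Chd8, a gene for a chromatin remodeling factor, in which the ubiquitously expressed β-actinCre had deleted the floxed exon 3. The line was made in C57BL/6 embryonic stem cells, passed through a Flpe deleter cross, and was then bred to C57BL/6J mice, and all 4 groups are from this C57Bl/6J background. The Chd8+/+ controls carried no null allele. The labels do not say whether each library of a group came from its own animal, so p-values measure the spread between these libraries, which may in part be technical. Xist, which is transcribed from the inactive X chromosome of females, was at 835 to 2009 CPM (counts per library total, defined below) in 1 library of each group and at 0.172 to 2.198 CPM in the other 2, so that the libraries of a group did not all come from 1 animal and the 4 groups had the same mix.

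GABA-A receptors are pentameric chloride channels opened by the transmitter GABA, and most are built of alpha, beta and gamma subunits whose choice sets the affinity, kinetics and place of the receptor. The direction of the current depends on the chloride gradient. Slc12a2 encodes NKCC1, which brings chloride into the cell, and Slc12a5 encodes KCC2, a neuronal cotransporter that takes chloride out, and the change from the former to the latter is known to accompany the shift of GABA from a depolarizing to a hyperpolarizing transmitter in the maturing cortex.

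Promoter sequences from RefSeq (GRCm38.p6) were found for 6 of the 7 genes, with none for Slc12a2. The following are shown because the comparisons below turn on these genes. They are Slc12a5, whose 2 RefSeq starts are added together in its count, Gabrb2 and Gabra2. Of the 7 genes, Gabrb2 differed most from its controls at P5 relative to its standard error. The level of Gabra2 split the P5 libraries. Each sequence runs 5′ to 3′ on the strand of the gene, ends at or before the RefSeq start and leaves out the exons of the deposited gene model. Capitals mark GGGCGG (a GC box, the site of Sp1-type factors) or GCGNGGGCG (the site of EGR-type factors), read on both strands, which in Gabrb2 overlap each other.
Slc12a5, first start, chr2:164960596-164960801, plus strand: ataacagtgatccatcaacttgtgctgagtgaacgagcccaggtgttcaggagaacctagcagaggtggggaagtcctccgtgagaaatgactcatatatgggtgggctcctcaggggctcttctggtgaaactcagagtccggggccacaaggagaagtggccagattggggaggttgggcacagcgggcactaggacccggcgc
Slc12a5, second start, chr2:164967738-164967982, plus strand: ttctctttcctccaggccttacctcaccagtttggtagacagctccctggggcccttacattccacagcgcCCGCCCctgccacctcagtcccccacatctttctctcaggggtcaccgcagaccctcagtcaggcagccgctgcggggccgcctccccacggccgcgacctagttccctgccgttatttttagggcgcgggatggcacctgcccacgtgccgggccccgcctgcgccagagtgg
Gabrb2, first start, chr11:42420190-42420439, plus strand: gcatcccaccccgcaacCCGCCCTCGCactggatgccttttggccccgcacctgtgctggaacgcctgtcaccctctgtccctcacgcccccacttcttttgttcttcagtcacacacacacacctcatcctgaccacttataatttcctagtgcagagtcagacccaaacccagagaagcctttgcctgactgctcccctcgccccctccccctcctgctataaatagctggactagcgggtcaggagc
Gabra2, chr5:71095850-71096099, minus strand: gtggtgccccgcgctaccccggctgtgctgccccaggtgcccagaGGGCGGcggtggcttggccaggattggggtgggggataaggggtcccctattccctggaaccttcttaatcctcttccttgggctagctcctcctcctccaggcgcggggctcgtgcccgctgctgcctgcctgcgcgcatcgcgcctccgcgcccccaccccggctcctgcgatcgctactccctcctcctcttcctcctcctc

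GGGCGG stood in 32.7% and GCGNGGGCG in 4.7% of the 32851 promoters of the table, over the 250 bases before the start. TGACGTCA, the cyclic AMP response element, held in 1.55% of them, and TTCAGCACC, the left part of the RE1 element bound by REST, held in 0.301%, were not found in the windows of these 6 genes. The window of Gabra2 was 70% G or C, and those of Gabra3 were 41.1% and 42.4%, against a median of 52.4% over all promoters. The other 2 windows of Gabrb2 (54.0% and 36.8% G or C) held none of these motifs. The second Slc12a5 window and the first of Gabrb2 lie within introns of the deposited gene models. A match is a description of these letters and not of binding.

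The libraries held between 38774591 and 54695236 counts, and levels are given as CPM, the counts of a gene relative to the total of its library, scaled over all 12 libraries by the trimmed mean of M values (TMM). Chd8, the targeted gene, was at 229 to 235 CPM in Chd8+/+ and 161 to 167 CPM in Chd8+/- libraries at E12.5, and at 145 to 151 and 95.0 to 98.6 CPM at P5, so that the labels of all 12 libraries matched its level. All 9 markers of cortical excitatory neurons were detected at both stages. The E12.5 Chd8+/- library of replicate 2 stood apart, with the lowest summed level of these markers (595 CPM, against 722 to 865 CPM in the other 5) and the highest of meningeal markers (598 CPM, against 253 to 389 CPM). In bulk tissue, fewer cells of a type and less RNA per cell cannot be told apart. The stages were also counted in separate tables and differ in the tissue taken, so that stage cannot be told apart from these.

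**Figure D1:**
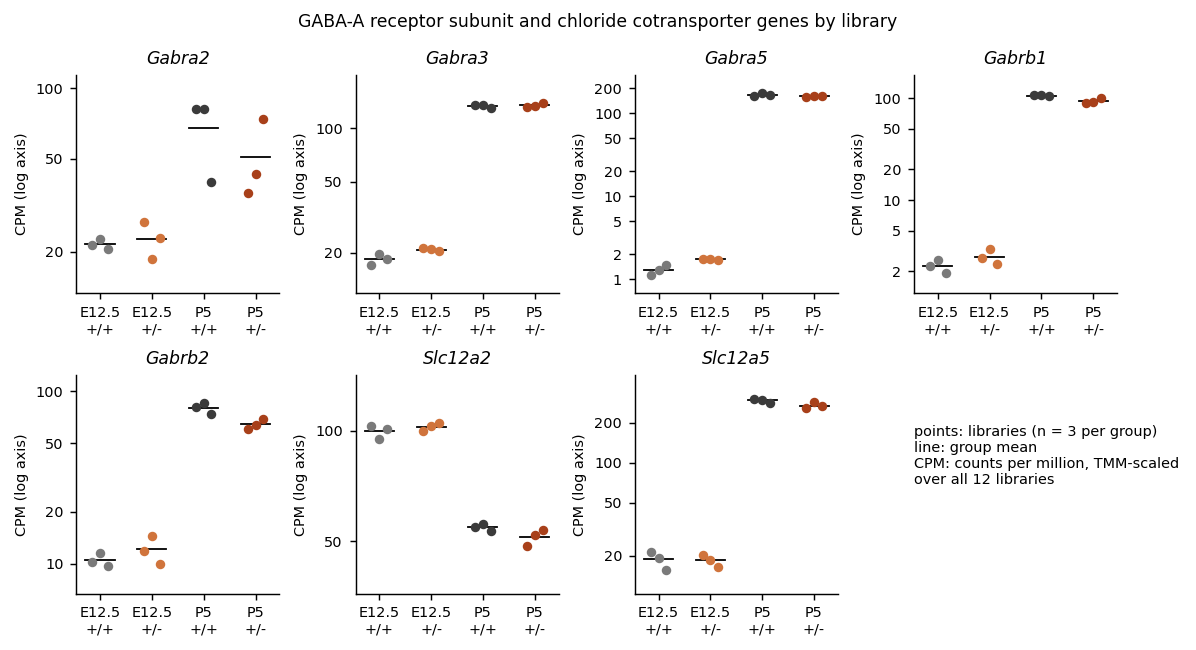
Level of each of the 7 genes in CPM on a log axis, with 1 point for each library, 3 per group, and a line at the group mean. Slc12a2 is lower at P5 than at E12.5, the other 6 genes are higher, and the P5 libraries of Gabra2 lie at separate levels in both genotypes, between 35.8 and 81.7 CPM.

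The first question was how these genes differ between the embryonic and the postnatal neocortex. In Chd8+/+ mice 6 of the 7 rose from E12.5 to P5 and Slc12a2 fell, and the same was found in Chd8+/- mice. Among the 19676 genes tested, 41.4% rose and 41.7% fell in Chd8+/+, and 41.3% and 41.6% in Chd8+/-, so that most genes differed between the stages, and the direction and size of the members are described. The median log2 fold change of the 7 genes was 2.94 in Chd8+/+, against -0.02 over all genes, and 2.69 against -0.0046 in Chd8+/-.

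Gabra5, a subunit abundant in the forebrain and known for extrasynaptic receptors, changed most of the 7. It was at 1.14, 1.31 and 1.48 CPM in the E12.5 Chd8+/+ libraries and at 161, 174 and 167 CPM in the P5 Chd8+/+ libraries, a 128-fold rise (log2 fold change 6.997 ± 0.067 SE, n = 3 per stage, edgeR's quasi-likelihood test, adjusted p = 1.76e-17). At E12.5 it rested on 57 to 83 reads per library. Of the 19676 genes, 122 had a larger rise. In Chd8+/- mice it rose 91.6-fold, from 1.76, 1.77 and 1.70 CPM to 157, 162 and 160 CPM (log2 fold change 6.52 ± 0.065 SE, adjusted p = 2.93e-17). Gabra5 lies at chr7:57407690-57510009 (GRCm38) on the minus strand, and 148 of its 2653 exonic bases are shared with Gm9962 on the other strand.

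Gabra3, an alpha subunit common in the embryonic cortex and in monoaminergic neurons, was at 17.1, 19.6 and 18.6 CPM at E12.5 and at 134, 134 and 129 CPM at P5 in Chd8+/+ mice. In Chd8+/- mice it was at 21.2, 20.9 and 20.4 CPM and then at 131, 133 and 138 CPM. The stages did not overlap, and the rise was 7.21-fold in Chd8+/+ (log2 fold change 2.85 ± 0.050 SE, adjusted p = 1.2e-15) and 6.44-fold in Chd8+/- (2.69 ± 0.050, adjusted p = 1.89e-15). Gabra3 lies on the X chromosome at chrX:72432681-72656848, and in the libraries high in Xist it was at 18.6 and 21.2 CPM at E12.5 and at 134 and 131 CPM at P5 in Chd8+/+ and Chd8+/-. Gabra2, an alpha subunit placed at the axon initial segment, rose least, by 3.14-fold in Chd8+/+ (log2 fold change 1.65 ± 0.28 SE, adjusted p = 6.02e-05) and 2.25-fold in Chd8+/- (1.17 ± 0.27, adjusted p = 0.00119). Its standard error was the largest of the 7, and its spread at P5 is described below.

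The beta subunits, which most such receptors need for assembly, rose by unequal amounts. Gabrb1 went from 2.26, 2.60 and 1.92 CPM at E12.5 to 108, 107 and 104 CPM at P5 in Chd8+/+ mice, a 47.2-fold rise (log2 fold change 5.56 ± 0.11 SE, adjusted p = 2.45e-15). In Chd8+/- mice it went from 2.71, 3.29 and 2.34 CPM to 90.8, 92.7 and 102 CPM, a 34.3-fold rise (5.10 ± 0.10, adjusted p = 4.59e-15). With an offset for genomic span these log2 fold changes were 4.38 and 4.05. It rested on 92 to 147 reads per library at E12.5. Gabrb2 rose 7.66-fold in Chd8+/+, from 10.3, 11.5 and 9.74 CPM to 81.3, 86.0 and 74.4 CPM (2.94 ± 0.11, adjusted p = 4.29e-12). It rose 5.33-fold in Chd8+/-, from 11.8, 14.6 and 9.97 CPM to 60.7, 63.8 and 69.2 CPM (2.41 ± 0.11, adjusted p = 3.52e-11).

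The cotransporters moved in opposite directions. Slc12a5 was at 21.2, 19.4 and 15.6 CPM in the E12.5 Chd8+/+ libraries and at 305, 298 and 283 CPM at P5 (15.8-fold, log2 fold change 3.98 ± 0.097 SE, adjusted p = 2.43e-14). In Chd8+/- mice it was at 20.3, 18.5 and 16.5 CPM and then at 256, 285 and 267 CPM (14.7-fold, 3.87 ± 0.097, adjusted p = 3.3e-14). Slc12a2, which is also abundant in progenitors, glia and choroid plexus, was at 103, 95.2 and 101 CPM at E12.5 and 54.6, 55.8 and 53.2 CPM at P5 in Chd8+/+ mice (1.83-fold lower, log2 fold change -0.87 ± 0.046 SE, adjusted p = 1.45e-10). In Chd8+/- mice it was at 99.7, 103 and 105 CPM and then at 48.5, 51.9 and 53.7 CPM (1.99-fold lower, -0.996 ± 0.046, adjusted p = 3.22e-11). Beside this, the summed level of 9 progenitor markers went from 4247 to 4561 CPM at E12.5 to 271 to 324 CPM at P5, and that of 8 astrocyte markers from 360 to 401 CPM to 1555 to 1788 CPM. That of 8 choroid plexus markers went from 92.2 to 171 CPM to 325 to 579 CPM, opposite to Slc12a2. The part of these cells in the result was not tested.

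Per exonic kilobase, Slc12a5 transcripts were below Slc12a2 transcripts in all 6 E12.5 libraries and above them in all 6 P5 libraries. The ratio of Slc12a5 to Slc12a2 was 0.165 ± 0.025 (SD, n = 3) in Chd8+/+ and 0.158 ± 0.020 in Chd8+/- libraries at E12.5, and 4.76 ± 0.13 and 4.61 ± 0.23 at P5. The genotypes overlapped at both stages, with 0.136 to 0.180 against 0.138 to 0.179 at E12.5 and 4.68 to 4.91 against 4.36 to 4.83 at P5. On the log2 scale the ratio differed between stages by 4.86 in Chd8+/+ and 4.87 in Chd8+/-, and between genotypes by -0.056 at E12.5 and -0.047 at P5. The ratio is a description of the level of RNA and was not tested.

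**Figure D2:**
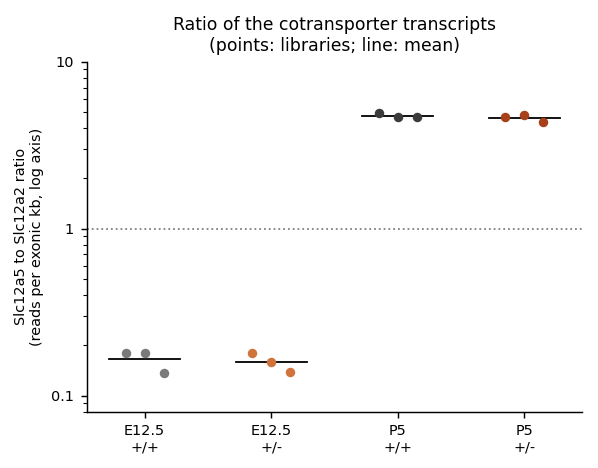
Ratio of Slc12a5 to Slc12a2 reads per exonic kilobase in each library on a log axis, with a line at the mean of the 3 libraries and a dotted line at 1. The E12.5 libraries lie between 0.136 and 0.180 and the P5 libraries between 4.36 and 4.91, with the genotypes overlapping at each stage.

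Levels per exonic kilobase also put the 7 genes in order. In E12.5 Chd8+/+ neocortex the order was Slc12a2 (15.3 ± 0.64 CPM per kilobase, SD, n = 3), Gabra3 (4.69), Gabra2 (2.81), Slc12a5 (2.53), Gabrb2 (1.65), Gabra5 (0.494) and Gabrb1 (0.163). The neighbours Gabra2 and Slc12a5 overlapped in their libraries, with 2.70 to 2.95 and 2.11 to 2.86 CPM per kilobase. In P5 Chd8+/+ neocortex Gabra5 came first (63.0 ± 2.5), before Slc12a5 (39.8), Gabra3 (33.8), Gabrb2 (12.7), Gabra2 (8.84), Slc12a2 (8.36) and Gabrb1 (7.68). There Gabra2, at 5.17 to 10.7, overlapped Slc12a2 and Gabrb1. The order in Chd8+/- was the same at E12.5, where Slc12a5 (2.22 to 2.73) overlapped Gabra2 (2.43 to 3.49) and Gabrb2 (1.57 to 2.29). At P5 Gabra2 came last in Chd8+/- (6.67 ± 2.7), with libraries at 4.69 to 9.69 that overlapped Gabrb2, Slc12a2 and Gabrb1, and Slc12a5 and Gabra3 overlapped as well.

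Shares within the group of alpha members and within the pair of beta members were taken per exonic kilobase, with subunit genes outside the 7 left out of the sums. Among Gabra2, Gabra3 and Gabra5, Gabra3 held 58.6 ± 1.0% (SD, n = 3) and Gabra2 35.2 ± 1.6% of the transcripts in E12.5 Chd8+/+ libraries, and Gabra5 held 6.17 ± 0.73%. At P5 Gabra5 held 59.7 ± 2.4%, Gabra3 32.0 ± 0.91% and Gabra2 8.30 ± 2.8%. In Chd8+/- libraries Gabra5 went from 7.38 ± 0.49% to 59.7 ± 2.0%, and Gabra3 from 59.5 ± 3.4% to 33.8 ± 0.37%. Of the sum of Gabrb1 and Gabrb2, Gabrb1 held 8.95 ± 0.56% at E12.5 and 37.8 ± 1.4% at P5 in Chd8+/+ libraries, and 9.55 ± 0.17% and 40.4 ± 0.35% in Chd8+/- libraries. In the P5 Chd8+/- libraries Gabrb2 thus held 59.3% to 60.0% of this pair, below the 60.8% to 63.6% of the P5 Chd8+/+ libraries. These shares are descriptions and were not tested.

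**Figure D3:**
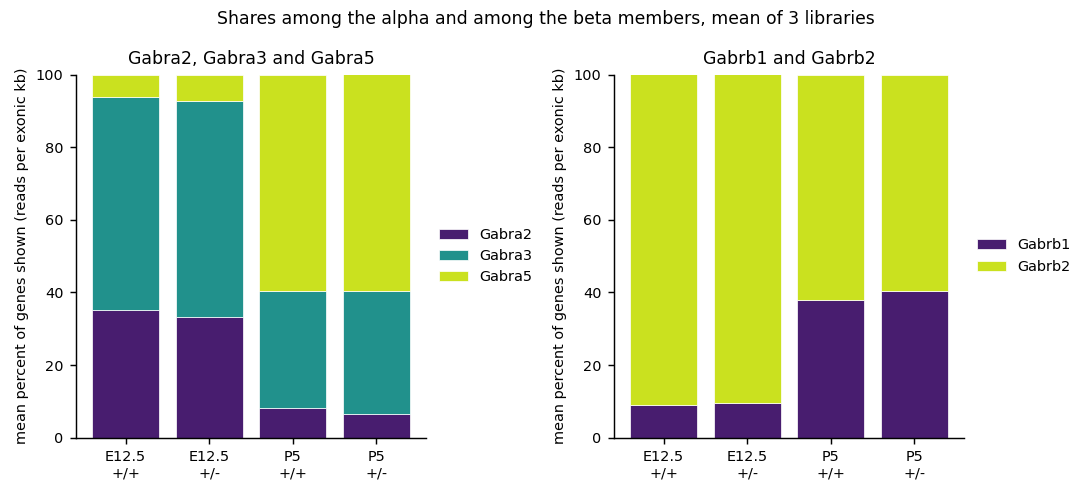
Mean share of each gene among Gabra2, Gabra3 and Gabra5 (left) and of the sum of Gabrb1 and Gabrb2 (right), in percent of reads per exonic kilobase, for the 4 groups of 3 libraries. Gabra5 takes 59.7% of its 3 genes at P5 in both genotypes, against 6.17% and 7.38% at E12.5, and Gabrb1 takes 37.8% and 40.4% of its pair at P5.

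Most of the other subunit genes tested also differed between the stages. In Chd8+/+ mice 5 of 8 other subunit genes of the list tested rose and 2 fell (median log2 fold change 3.32), and in Chd8+/- mice 5 rose and 3 fell (3.33). Gabra4 and Gabrg1 lie with Gabra2 and Gabrb1 on chromosome 5, and their log2 fold changes in Chd8+/+ were 3.54 ± 0.090 and 4.41 ± 0.14 SE. Gabra6, with Gabrb2 on chromosome 11, was at or below 0.0958 CPM in each library. Gabrg3 (4.80 ± 0.14) lies with Gabra5 on chromosome 7. On the X chromosome, with Gabra3, Gabre fell (-3.10 ± 0.20) and Gabrq gave -0.06 ± 0.094 (adjusted p = 0.547) in Chd8+/+ and fell in Chd8+/- (-0.23 ± 0.096, adjusted p = 0.0352), a difference between genotypes of -0.17 ± 0.13 (interaction, edgeR adjusted p = 0.687). Gabrd and Gabrr1 also rose and Gabrr2, with 4 to 17 reads per library, fell in both genotypes. In Chd8+/- mice DESeq2 called 6 of the 8, without Gabrq (adjusted p = 0.136) and Gabrr2 (adjusted p = 0.0816), and in Chd8+/+ 7, all but Gabrq.

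Among other cotransporters of the SLC12 family, Slc12a4, Slc12a8 and Slc12a9 rose and Slc12a7, which encodes KCC4, fell (log2 fold change -2.85 ± 0.064 SE in Chd8+/+). DESeq2 called 3 of these 4 in Chd8+/+, without Slc12a8, and all 4 in Chd8+/-. The WNK kinases act on NKCC1 and KCC2 through SPAK (Stk39) and OSR1 (Oxsr1), which phosphorylate the cotransporters. Of these 6 kinase genes, Wnk1, Wnk3, Stk39 and Oxsr1 fell and Wnk2 and Wnk4 rose in both genotypes. Wnk1 went from 327 to 378 CPM to 175 to 184 CPM in Chd8+/+ mice. Of the 15 scaffold and trafficking genes 11 rose and 4 fell in each genotype, with medians of 0.91 and 0.77. DESeq2 called 14 of the 15 in each, and in Chd8+/- the stages overlapped in Gabarap, which was among those that fell. Of 7 genes for GABA synthesis, transport and breakdown 6 rose in each. The seventh, Gad2, gave -0.20 ± 0.11 SE (edgeR adjusted p = 0.112) in Chd8+/+ and fell in Chd8+/- (-0.44 ± 0.12, adjusted p = 0.0028), a difference between genotypes of -0.23 ± 0.16 (interaction, adjusted p = 0.646). Both GABA-B receptor genes rose, Gabbr2 by 6.09 ± 0.067 on the log2 scale in Chd8+/+.

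The next question was whether loss of 1 Chd8 allele changed these genes at E12.5. None of the 7 was called by edgeR, where 0.00553% of the 18081 genes tested were called, nor by DESeq2, where 0.0374% of 13360 were called and Gabra5 was filtered out and had no adjusted p. At an unadjusted edgeR p under 0.05, 2 of the 7 were higher in Chd8+/-, against 5.15% of all genes in either direction. These were Gabra3 (log2 fold change 0.18 ± 0.068 SE, n = 3 per genotype, adjusted p = 0.942) and Gabra5 (0.41 ± 0.16, adjusted p = 0.942), each from the quasi-likelihood test of edgeR. Gabra5 gave 0.61 in the first and 0.216 in the second sequencing run of the libraries alone. They were also the members in which the genotypes did not overlap, which was so for 5.6% of genes in this direction and for 5.76% in the other. Some markers of other cells were also apart at E12.5. The endothelial markers summed to 252 to 265 CPM in Chd8+/+ and 221 to 234 CPM in Chd8+/- libraries (7 of 7 lower, 3 with an unadjusted edgeR p under 0.05) and the astrocyte markers to 360 to 383 and 394 to 401 CPM (2 of 6 tested lower, none at that p), and their part in the levels of Gabra3 and Gabra5 was not tested.

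The remaining members overlapped at E12.5. Gabrb1 differed by 0.30 ± 0.18 SE (adjusted p = 0.944) and Gabrb2 by 0.20 ± 0.13 (adjusted p = 0.947) on the log2 scale. The highest Gabrb2 value, 14.6 CPM, came from the Chd8+/- library of replicate 2 that stood apart in its markers, and without that library the difference was 0.051 for Gabrb2 and 0.16 for Gabrb1. Gabra2 differed by 0.08 ± 0.12, Slc12a2 by 0.04 ± 0.044 and Slc12a5 by -0.03 ± 0.12, with adjusted p from 0.973 to 0.995. Slc12a2 gave 0.01 to 0.059 in edgeR with 1 library left out. The median over the 7 was 0.18, against 0.00058 over all genes.

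At P5, 6 of the 7 genes had a lower mean level in Chd8+/- neocortex, and the largest relative to its error was that of Gabrb2. Its level was 81.3, 86.0 and 74.4 CPM in Chd8+/+ and 60.7, 63.8 and 69.2 CPM in Chd8+/- libraries, so that the genotypes did not overlap. The log2 fold change was -0.30 ± 0.058 SE (n = 3 per genotype, 1.23-fold lower). It did not pass edgeR's quasi-likelihood test (adjusted p = 0.095) and passed DESeq2 (adjusted p = 0.000489). The tools differed in this way over the whole table, where edgeR called 0.00536% of 18666 genes (0.729% at an adjusted p under 0.1) and DESeq2 5.28% of 12362. Over the whole table these counts moved with 1 library left out, from 1 gene to as many as 327 (without Chd8+/- replicate 2) in edgeR and from 653 to between 48 (without Chd8+/+ replicate 1) and 891 (without Chd8+/- replicate 2) in DESeq2. DESeq2 called Gabrb2 without each library in turn, with adjusted p from 7.46e-05 to 0.0437 and a log2 fold change from -0.35 to -0.26, and edgeR gave adjusted p from 0.0534 to 0.39 there. With an offset for genomic span the difference was -0.23 (edgeR, adjusted p = 0.132).

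Gabrb1 did not overlap between the genotypes either, with 108, 107 and 104 CPM in Chd8+/+ and 90.8, 92.7 and 102 CPM in Chd8+/- libraries. Such a gap downward was found for 14.8% of all genes at P5 and upward for 8.55%. The log2 fold change of Gabrb1 was -0.15 ± 0.044 SE (edgeR, adjusted p = 0.148, DESeq2 adjusted p = 0.0709), which became -0.073 with an offset for gene length and -0.054 with one for genomic span. Slc12a5 was at 305, 298 and 283 CPM in Chd8+/+ and 256, 285 and 267 CPM in Chd8+/- libraries, which overlapped (-0.12 ± 0.046, edgeR adjusted p = 0.234). With Gabrb2 and Gabrb1 it made up the 3 of 7 members with an unadjusted edgeR p under 0.05, against 17.8% of all genes.

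The other members at P5 were closer. Slc12a2 was at 54.6, 55.8 and 53.2 CPM in Chd8+/+ and 48.5, 51.9 and 53.7 CPM in Chd8+/- (-0.07 ± 0.045 SE, edgeR adjusted p = 0.453). Gabra5 differed by -0.05 ± 0.039 (adjusted p = 0.544), and Gabra3 by 0.03 ± 0.036 (adjusted p = 0.683), with overlapping libraries in both. With 1 library left out edgeR gave -0.0923 to -0.0298 (without Chd8+/- replicate 1) for Slc12a2, -0.0753 (without Chd8+/+ replicate 1) to -0.0192 (without Chd8+/+ replicate 2) for Gabra5, and 0.0177 (without Chd8+/- replicate 3) to 0.0494 (without Chd8+/- replicate 1) for Gabra3, which was 0.102 with an offset for genomic span. The median over the 7 was -0.12, against 0.0017 over all genes.

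**Figure D4:**
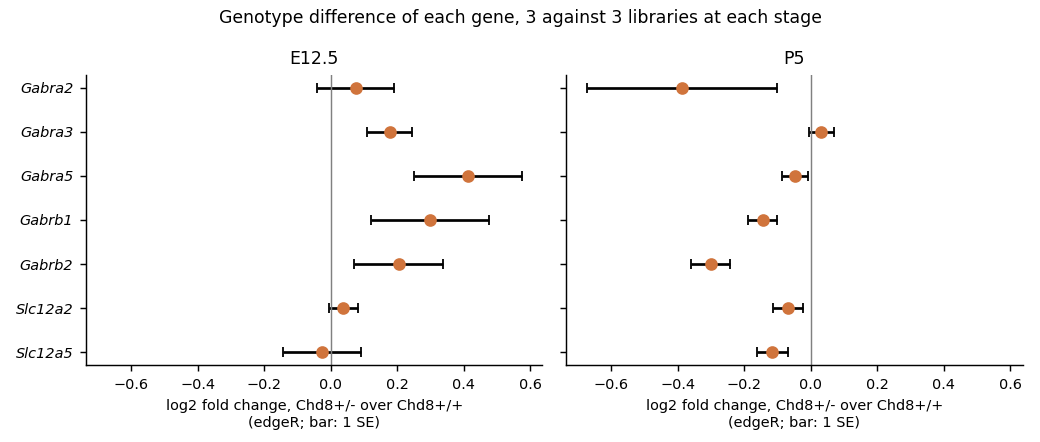
Log2 fold change of each gene in Chd8+/- over Chd8+/+ libraries at E12.5 (left) and P5 (right), from edgeR, with bars of 1 standard error and 3 libraries per genotype. Gabrb2 lies at -0.30 at P5 with a bar of 0.058, Gabra2 has the widest bar at P5 (0.29), and at E12.5 the bars of Gabra3, Gabra5, Gabrb1 and Gabrb2 lie above 0.

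Gabra2 lay at separate levels at P5 that crossed the genotypes. As background, the level of Gabra2 in the brain is known to differ among substrains of C57BL/6. It was at 81.7 and 81.4 CPM in Chd8+/+ replicates 1 and 2 and at 74.0 CPM in Chd8+/- replicate 3, but at 39.5 CPM in Chd8+/+ replicate 3 and at 35.8 and 43.1 CPM in Chd8+/- replicates 1 and 2. The high and the low level thus both occurred in each genotype. At E12.5 its 6 libraries lay between 18.6 and 26.7 CPM. The log2 fold change at P5 was -0.39 ± 0.29 SE (edgeR, adjusted p = 0.507) and lay between -0.75 and -0.19 with 1 library left out. Among 10820 other genes with a mean of at least 5 CPM at both stages, the one with the most similar course was Zfp605, a zinc finger gene 39.0 megabases away on chromosome 5 (Pearson's r = 0.951 over 12 libraries, after the mean of each stage was taken off). Zfp605 was at 36.7, 37.2 and 38.6 CPM in the 3 P5 libraries that were high in Gabra2 and at 19.7, 16.5 and 18.7 CPM in the other 3. Next were Gm8730 (r = 0.926), a processed pseudogene on chromosome 8 whose reads may be shared with its parent gene, and Dpyd (r = 0.917) on chromosome 3. Gm8730 was at 19.8, 21.3 and 21.8 CPM in the former and at 4.02, 4.84 and 3.92 CPM in the latter P5 libraries. The alleles that these mice carried were not analysed here.

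**Figure D5:**
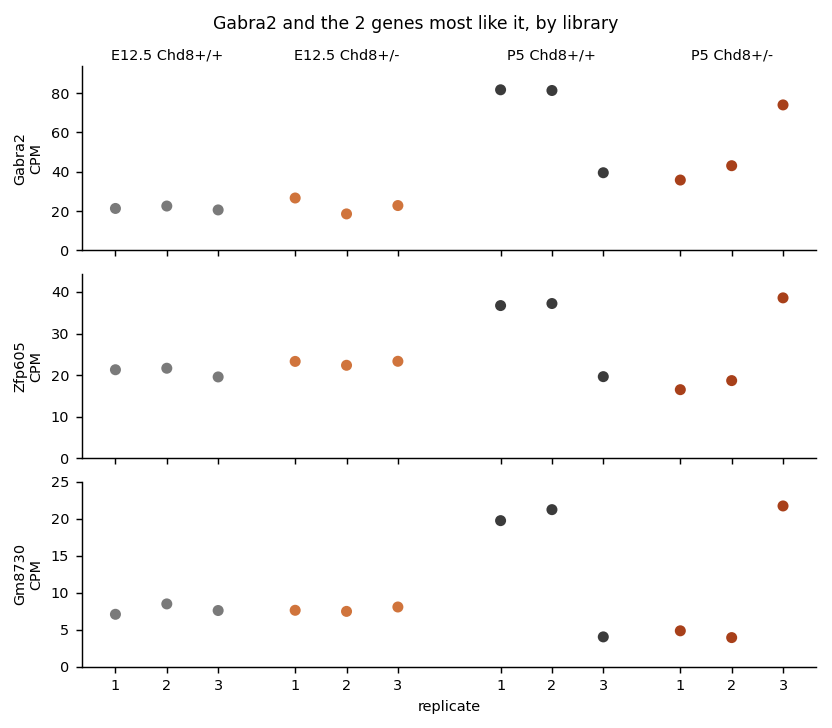
Level in CPM of Gabra2, Zfp605 and Gm8730 in each of the 12 libraries, with colours for the 4 groups and replicate numbers below. At P5 the libraries Chd8+/+ 1, Chd8+/+ 2 and Chd8+/- 3 are high in all 3 genes, with Gabra2 at 74.0 to 81.7 CPM, and the other 3 are low, at 35.8 to 43.1 CPM.

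Among the other genes of the lists no gene was called by edgeR in either stage's comparison of genotypes. DESeq2, which called 5.28% of all genes at P5, called 2 of them there, a share of these lists near that of all genes. These were Gphn, 1 of 15 scaffold and trafficking genes, and Gad1, 1 of 7 genes for GABA synthesis, transport and breakdown. Gphn encodes the synaptic scaffold gephyrin (-0.16 ± 0.034 SE, edgeR adjusted p = 0.0973, DESeq2 adjusted p = 0.02). Gad1 encodes the GABA synthesizing enzyme GAD67 (-0.24 ± 0.067, edgeR adjusted p = 0.133, DESeq2 adjusted p = 0.0104). Gad1 was at 184, 174 and 165 CPM in Chd8+/+ and 130, 158 and 151 CPM in Chd8+/- libraries. Of the 7 genes for GABA synthesis, transport and breakdown 6 were lower at P5 and 3 of them had an unadjusted edgeR p under 0.05, which 17.8% of all genes had, among them Abat, which encodes the GABA transaminase (-0.19 ± 0.076, DESeq2 adjusted p = 0.0674). Of the 15 scaffold and trafficking genes 10 were lower, 3 of them at that p, a share near that of all genes, among them Plcl1 (-0.23 ± 0.064, DESeq2 adjusted p = 0.0729). The medians of these lists were -0.14 and -0.03.

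Of the 7 other subunit genes of the list tested at P5, 6 were lower in Chd8+/-, and 1 of them, Gabre, had an unadjusted edgeR p under 0.05 (-0.58 ± 0.25 SE, at 0.376 to 0.782 CPM). Neighbours of the members by chromosome, Gabra4 (-0.09 ± 0.049), Gabrg1 (-0.13 ± 0.076), Gabrg3 (-0.02 ± 0.060) and Gabrq (-0.14 ± 0.090), had edgeR adjusted p from 0.382 to 0.919. Neither this list nor that of the kinases exceeded the 17.8% of all genes at that p. Of the kinases 1 of 6 had it, Wnk3 (-0.15 ± 0.050, DESeq2 adjusted p = 0.108), and of the 4 other cotransporters of the list tested none did. At E12.5, where 5.15% of all genes had such a p, Hap1, a trafficking gene, was lower in Chd8+/- (-0.25 ± 0.058, edgeR adjusted p = 0.924, DESeq2 adjusted p = 0.178), as was Gad1 (-0.19 ± 0.084, edgeR adjusted p = 0.942). The same neighbours and Gabre gave 0.46 ± 0.22 for Gabrg1, -0.05 ± 0.14 for Gabra4, -0.54 ± 0.27 for Gabrg3, -0.08 ± 0.16 for Gabre and 0.02 ± 0.11 for Gabrq, with edgeR adjusted p from 0.942 to 0.996. Gabrg1 and Gabrg3 rested there on 46 to 93 and 29 to 72 reads per library and had no adjusted p from DESeq2.

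Markers of other cells moved with the P5 genotype. The summed level of 8 markers of striatal medium spiny neurons was 456 to 492 CPM in Chd8+/+ and 355 to 415 CPM in Chd8+/- libraries, and all 8 were lower, each with an unadjusted edgeR p under 0.05. Choroid plexus markers summed to 447 to 579 and 325 to 384 CPM (8 of 8 lower, 7 of these at that p). Endothelial markers summed to 237 to 266 and 206 to 234 CPM (6 of 7 lower, all 6 at that p). Interneuron markers summed to 783 to 809 and 669 to 755 CPM (9 of 10 lower, 4 of these at that p). Every gene of these lists reached 1 CPM in at least 1 library of each P5 group. The interneuron list includes Gad1, Gad2 and Slc32a1, which are also counted above among the genes for GABA synthesis, transport and breakdown. Progenitor markers summed to 289 to 324 and 271 to 299 CPM. Of these 9, 8 were lower, 4 of them with an unadjusted edgeR p under 0.05, and the 1 higher also had such a p. Erythrocyte markers summed to 121 to 131 and 106 to 125 CPM, with 2 of the 7 under 1 CPM in each P5 library. Of the 5 tested 4 were lower, 2 of them at that p, and the 1 higher was at it as well. Meningeal markers summed to 231 to 255 and 224 to 289 CPM, with 1 of 6 lower and 2 of the higher ones at that p. Markers of cortical excitatory neurons summed to 1439 to 1524 and 1428 to 1505 CPM, with 4 of 9 lower and 2 of these at that p, and astrocyte markers to 1723 to 1788 and 1555 to 1778 CPM, with 6 of 8 lower and none of the 8 at it. The part of these cells in the levels of Gabrb2, Gabrb1, Slc12a5, Slc12a2, Gphn and Gad1 was not tested. The Chd8+/- library of replicate 1 had the lowest level of the 6 in Gabra2, Gabra5, Gabrb1, Gabrb2, Slc12a2 and Slc12a5, and also the lowest sums for striatal, interneuron, progenitor, astrocyte and oligodendrocyte precursor markers, with 1505 CPM for excitatory neurons. It was the Chd8+/- library high in Xist, and without it Gabrb2 differed by -0.26 (DESeq2 adjusted p = 0.0108, edgeR 0.214).

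The last question was whether the effect of the genotype differed between the stages. No member was called for the interaction by edgeR, where 0% of 19676 genes were called, or by DESeq2, where 0.0938% of 8533 were. At an unadjusted edgeR p under 0.05, which 10% of all genes had, there were 4 of 7 members. These were Gabra5 (-0.48 ± 0.11 SE on the log2 scale, edgeR adjusted p = 0.362), Gabrb2 (-0.52 ± 0.16, adjusted p = 0.362), Gabrb1 (-0.46 ± 0.15, adjusted p = 0.39) and Gabra3 (-0.16 ± 0.068, adjusted p = 0.466), and DESeq2 gave adjusted p from 0.107 to 0.444 for these. The value of Gabra3 was -0.078 without E12.5 Chd8+/+ replicate 1 and -0.055 with an offset for genomic span, and that of Gabra5 was -0.297 in the second run alone. Without the E12.5 Chd8+/- library of replicate 2, which stood apart in its markers, Gabrb2 gave -0.359 and Gabrb1 -0.312. In all 4 the Chd8+/- mean lay above that of Chd8+/+ at E12.5, where Gabra5 and Gabrb1 were under 4 CPM, and at P5 it lay above it for Gabra3 and below it for the others. Gabra2 (-0.48 ± 0.38), Slc12a2 (-0.12 ± 0.065) and Slc12a5 (-0.10 ± 0.13) did not reach that p, with adjusted p from 0.543 to 0.803. With 1 library left out these lay between -0.851 (without P5 Chd8+/- replicate 3) and -0.279 (without P5 Chd8+/- replicate 1) for Gabra2 and between -0.155 and -0.0779 (without E12.5 Chd8+/+ replicate 2) for Slc12a2. Among the neighbours by chromosome, Gabrg1 (-0.61 ± 0.21) and Gabrg3 (0.51 ± 0.23) had an unadjusted edgeR p under 0.05, with adjusted p of 0.405 and 0.49. At E12.5 they rested on 46 to 93 and 29 to 72 reads per library, and DESeq2 gave neither an adjusted p.

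Genes most like each of 5 other members over the 12 libraries, by the same correlation after removal of stage means, were sought among the genes with a mean of at least 5 CPM at both stages, which were 10821 for Gabra5 and Gabrb1, themselves under that level at E12.5, and 10820 for the others. These were Rgs4 for Gabrb1 (r = 0.951), Siae for Gabra3 (r = 0.97), Cnksr2 for Gabra5 (r = 0.886), Mtdh for Slc12a2 (r = 0.962) and Yipf6 for Slc12a5 (r = 0.9). The correlations share libraries and depth and are given as a description.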

How the data were processed

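RNA-seq libraries of Chd8+/+ and Chd8+/- neocortex at E12.5 and P5 were analysed from raw counts per gene. Per the labels and the study's methods, the authors checked reads with FastQC 0.11.2, trimmed them with Trim Galore 0.4.1, aligned them to GRCm38 with TopHat2 2.1.0 and made the deposited counts with featureCounts 1.5.0, without normalization. Strand was ignored in counting at P5, per the file headers, and for E12.5 the setting is not given in the sources used here. Symbols matched 46005 of 46603 genes. The 2 runs of each library were summed. Genes were tested with edgeR 4.0.16 in R 4.3.3 (TMM, filterByExpr, quasi-likelihood test, Benjamini-Hochberg over all genes tested, threshold 0.05), the genotypes within a stage and the stages and interaction in 1 model of 12 libraries. A fold change is that of this model. The procedure was tested on simulated data. DESeq2 1.42.0, limma-voom (limma 3.58.1), other scalings, filters, length and span offsets, single runs, a replicate block and libraries left out were alternatives. Ratios and shares used counts per exonic kilobase. All 7 members are named, and genes of the other lists where past a threshold, beside a member on its chromosome, or with the smallest p, as far as these bear on the members. Some genes of these lists, and the gene most like Gabrb2, are not reported here and stay out of the counts and shares. The members and lists were chosen with earlier results of these data known. Figures were made with Python 3.11.15 and matplotlib 3.10.9.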

Additional observations from a re-analysis of the deposited data

How the results depend on the processing

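Each of the 7 genes kept the direction and the call of its stage difference in both genotypes under all alternatives run, but the size of some moved. With an offset for genomic span the log2 fold changes in Chd8+/+ and Chd8+/- were 4.38 and 4.05 for Gabrb1, 2.13 and 2.08 for Gabra3, 2.25 and 1.84 for Gabrb2 and 1.17 and 0.77 for Gabra2, and the median of all genes shifted to -0.12 with the gene length offset and -0.10 with the span offset in Chd8+/+. At E12.5 and for the interaction no member was called under any alternative. At P5 the count of members called was 0 and became 1 with DESeq2 (Gabrb2), 1 with the prior on its fold changes, 2 without a filter on low counts (Gabrb1 and Gabrb2), 1 at an adjusted p under 0.1, and 0 to 2 with a library left out, where DESeq2 also called Gabrb1 without Chd8+/- replicate 3 (adjusted p = 0.0249) and Slc12a5 without Chd8+/- replicate 2 (0.0177). DESeq2 with a library left out was added after the data were seen. Over all genes edgeR called 1 at P5, 995 without the filter and 4 with the replicate block, and DESeq2 653. With a P5 library left out edgeR called 1 in 3 cases, 2 without Chd8+/- replicate 1, 5 without replicate 3 and 327 without replicate 2, and DESeq2 called 48, 122 and 564 without Chd8+/+ replicates 1, 2 and 3 and 140, 891 and 314 without Chd8+/- replicates 1, 2 and 3. At E12.5 edgeR called 1, 13 without the filter and 0 with the block, and DESeq2 5. With an E12.5 library left out edgeR called 0 to 2, and DESeq2 3 (without Chd8+/- replicate 3) to 18 (without Chd8+/+ replicate 2). For the interaction edgeR called 0, 17 without the filter and 0 with the block, and DESeq2 8.

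Directions turned where differences were small. With a library left out, Gabra2 at E12.5 gave -0.054 to 0.20, Slc12a5 at E12.5 gave -0.14 to 0.069, the interaction of Slc12a5 gave -0.17 to 0.019, and the genotype difference in the log2 ratio of Slc12a5 to Slc12a2 at E12.5 gave -0.19 to 0.039. Slc12a5 at E12.5 was 0.029 in the first run alone, and Gabra5 at P5 was 0.00042 with the span offset. Raw counts in place of counts per kilobase put Gabra2 (52.2%) before Gabra3 (44.6%) among the 3 alpha members in E12.5 Chd8+/+ libraries.

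Same-numbered libraries of the genotypes deviated apart at E12.5, with correlations from -0.23 to -0.091, against -0.099 to 0.21 for different-numbered ones. At P5 they deviated together, though weakly, with 0.043 to 0.23 against -0.19 to 0.10. The numbers were not taken as pairs in the main tests. With the replicate block 0 members were called at E12.5, 0 at P5 and 0 for the interaction, and 7 in each stage comparison. The block gave Gabrb2 an adjusted p of 0.166 at P5.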
